A study of Homo sapiens with 18 samples.

Results

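LAPTM5, ALDH16A1, FLT3LG, CEACAM21 and JRKL are the human genes that lay nearest to, or held, the highest-ranked regions of H3K27ac that appeared after valproic acid. They were selected on the H3K27ac contrast itself: a high-ranked region in or near each gene had an H3K27ac peak in 3 of 3 VPA lists and in 0 of 3 CTRL lists. Values from that contrast are therefore given as a description, with no test. Each gene was taken with its body in GENCODE 44 (hg38) plus 100 kb either side, and a peak was counted when it shared 1 bp with that window. The 5 genes are 5 of 19111 autosomal protein-coding genes. LAPTM5 (ENSG00000162511) lies at chr1:30732469-30757774 on the minus strand. The others lie on the plus strand, ALDH16A1 (ENSG00000161618) at chr19:49453225-49471050, FLT3LG (ENSG00000090554) at chr19:49474207-49486231, CEACAM21 (ENSG00000007129) at chr19:41549518-41586844 and JRKL (ENSG00000183340) at chr11:96389989-96507574. Their windows merged into 4 stretches of 1010 kb in all, since those of ALDH16A1 and FLT3LG overlap on chromosome 19, and held 517 of the 506359 peaks of the 12 lists.

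All libraries came from HEK293T, an established human cell line derived from embryonic kidney. Chromatin was immunoprecipitated for H3K27ac or for CTCF from untreated cells (CTRL) or after 1 day in 1 mM VPA, which is valproic acid, a drug that blocks histone deacetylases. Each of the 4 combinations had 3 replicates, and no source used here says that they came from separate cultures, so their spread may be technical. Lists held 26299 to 40992 H3K27ac peaks and 36469 to 58782 CTCF peaks. Within each antibody and treatment the replicate 1 library had the shortest list. Depth as a number of reads is unknown. In such bulk chromatin, a peak in fewer cells and a lower level per cell cannot be told apart.

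H3K27ac, acetylation of a lysine in the tail of histone H3, marks active promoters and enhancers and is removed by histone deacetylases. CTCF is a zinc finger protein that binds a long DNA motif in one orientation and halts cohesin, which anchors chromatin loops. The 5 genes share no pathway. LAPTM5 encodes a lysosomal membrane protein of blood cells that lowers the surface level of antigen receptors. FLT3LG encodes the cytokine that activates the receptor FLT3 on blood progenitors and dendritic cells. CEACAM21 belongs to the carcinoembryonic antigen family of cell adhesion proteins, ALDH16A1 is an atypical aldehyde dehydrogenase, and JRKL is a gene related to the transposases of the tigger DNA transposons.

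The 5 genes had 4 gained regions between them, since the region in ALDH16A1 was also the top one in the window of FLT3LG. The LAPTM5 region, chr1:30777634-30780057, spans 2424 bp between genes, 21.2 kb upstream of the LAPTM5 start site. The ALDH16A1/FLT3LG region, chr19:49468080-49470357, spans 2278 bp. Its summit lay within ALDH16A1, in an exon of 1 of the 8 annotated transcripts, which has no coding part, and 4.73 kb upstream of the FLT3LG start site. The CEACAM21 region, chr19:41500833-41502242, spans 1410 bp between genes, 47.8 kb upstream of CEACAM21. The JRKL region, chr11:96463996-96464733, spans 738 bp in an intron shared by JRKL and the antisense gene JRKL-AS1, 74.3 kb downstream of the JRKL start site. None of the 4 summits lay within 1 kb of the annotated start of a protein-coding gene. Start sites of alternative transcripts and of non-coding genes were not checked.

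The 300 bases around the mean VPA summit were compared for how often their words of 24 bases occur in hg38 on either strand. The reference sequence (hg38, plus strand) is shown for LAPTM5, at chr1:30778817-30779116, and CEACAM21, at chr19:41501617-41501916, the members whose summits lay in sequence that seldom recurs. It is in lower case throughout, since no base of either lies in a word that occurs at least 100 times.
LAPTM5: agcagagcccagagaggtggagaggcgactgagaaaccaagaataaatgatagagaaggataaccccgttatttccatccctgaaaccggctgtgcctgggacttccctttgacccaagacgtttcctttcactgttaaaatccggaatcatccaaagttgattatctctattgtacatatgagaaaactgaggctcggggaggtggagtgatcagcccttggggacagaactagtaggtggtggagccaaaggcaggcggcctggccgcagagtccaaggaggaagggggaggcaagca
CEACAM21: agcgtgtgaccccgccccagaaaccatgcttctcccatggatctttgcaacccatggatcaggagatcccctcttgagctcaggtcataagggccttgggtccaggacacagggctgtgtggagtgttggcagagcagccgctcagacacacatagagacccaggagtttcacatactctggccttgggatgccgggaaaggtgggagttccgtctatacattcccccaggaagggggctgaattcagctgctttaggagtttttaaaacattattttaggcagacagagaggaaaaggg

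The summit stretches in ALDH16A1 and JRKL were mostly repeated sequence. In ALDH16A1, 69.3% of the 277 words occurred more than once and 54.2% at least 100 times, with a median of 171 copies and a highest count of 65449. In JRKL, 73.6% of the words were repeated and 50.2% had at least 100 copies, with a median of 110 and a highest count of 116901. Alu elements, the most abundant short interspersed repeats of the human genome, are known for such copy numbers, but no repeat annotation was used here. The LAPTM5 stretch was unique apart from 0.361% of its words. In the CEACAM21 stretch 18.4% of the words were repeated and none reached 100 copies.

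The summits were also set against the genome. Of the 2284 H3K27ac regions found only in VPA, 12.3% had at least 50% of their summit words at 100 copies or more, against 4.45% of the 18407 regions that all 6 lists shared. Over the whole ALDH16A1/FLT3LG region 15.6% of the words reached 100 copies, and over the whole JRKL region 23.2%. Both edges of the JRKL region and long stretches of the ALDH16A1/FLT3LG region were unique, as the plot of word copies shows. How read pairs with several equally good alignments were placed is not given in the sources used here, and its part in these peaks was not tested.

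**Figure D1:**
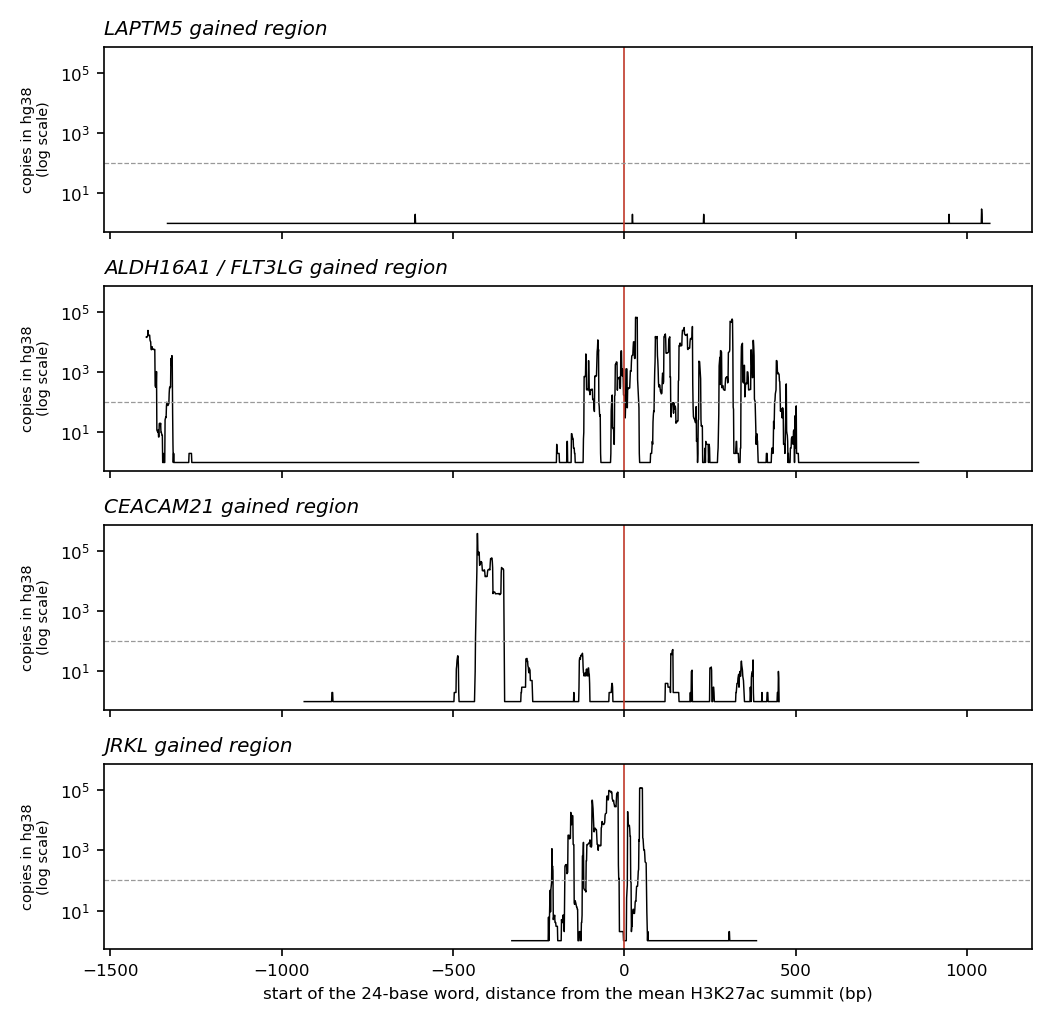
Copies in hg38 of each 24-base word (vertical, log scale) against its distance in bp from the mean H3K27ac summit of the VPA lists (red line) across each of the 4 gained regions, with 100 copies dashed. The LAPTM5 region stays at 1 to 3 copies, whereas the summits in ALDH16A1 and JRKL lie in sequence with a median of 171 and 110 copies per word.

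Short motifs were sought in the same 300-base stretches. The 5 motifs searched on both strands were the AP-1 site TGANTCA, the GC box GGGCGG, the TATA box TATAAA, the ETS site CCGGAAG and the CTCF core consensus of 12 letters. The only match was a GC box in CEACAM21, on the minus strand at 41501628 to 41501633. Such stretches held a GC box in 26.4% of all 55382 H3K27ac regions, an AP-1 site in 7.87%, TATAAA in 10.4%, CCGGAAG in 3.03% and the CTCF core in 0.65%. Among regions only in VPA these shares were 11.8%, 12%, 13.7%, 1.75% and 1.18%. With so few stretches no difference from these shares can be read. GC content was 51.7% at LAPTM5, 49% at ALDH16A1, 53.3% at CEACAM21 and 52.3% at JRKL, against medians of 49.7% in regions only in VPA and 63.3% in regions with a peak in all 6 lists.

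The gained regions were of middling height, not among the strongest peaks of a list. Rank here is the percentile of a peak's −log10 q within its own list, so that 100 is the top. The LAPTM5 region ranked at 65.1, 68.5 and 64.9 in VPA replicates 1 to 3, with a mean of 66.2 ± 2 (SD, n = 3). The ALDH16A1/FLT3LG region ranked at 62.8, 67.9 and 67, with a mean of 65.9 ± 2.7. These were the first and second highest mean ranks among the 2284 regions only in VPA, whose median was 29.8.

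The CEACAM21 region was next, at 70.6, 64.2 and 60.2, with a mean of 65 ± 5.28. The JRKL region followed, at 55.8, 67.3 and 64.9, with a mean of 62.7 ± 6.04. Further down, ranks 6 to 8 belonged to regions nearest to CHMP6 (61.1), HRH4 (61.1) and APOD (60.8). The difference between JRKL and these was smaller than the SD of JRKL over the 3 lists, so that the edge of the set lay within the replicate spread.

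The fold enrichment of a summit is its fragment pileup over the local background, as the peak caller gave it. At LAPTM5 it was 5.18, 8.9 and 6.39 in VPA replicates 1 to 3, and at ALDH16A1/FLT3LG it was 5.02, 9.32 and 8.93. At CEACAM21 it was 15.1, 7.11 and 5.96, and at JRKL it was 5.04, 11 and 9.74. Replicate 1 had the lowest value at 3 of the 4 regions and the highest at CEACAM21. The means ran from 6.83 ± 1.9 at LAPTM5 to 9.38 ± 4.96 at CEACAM21 (SD, n = 3). The ranges of the 4 regions over the 3 lists overlapped. No CTRL value exists, because a list holds no value where no peak was called.

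The pileup was recovered as whole fragments by solving for it from 2 deposited values of each peak, its fold enrichment and its −log10 p. The LAPTM5 summit held 114, 103 and 94 fragments in VPA replicates 1 to 3, over local backgrounds of 21.2, 10.7 and 13.9. The ALDH16A1/FLT3LG summit held 97, 93 and 88 fragments, over backgrounds of 18.5, 9.08 and 8.97. The spread of the fragments between replicates was thus narrower than that of the fold enrichments, and it was the background that set replicate 1 apart.

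The CEACAM21 summit held 83, 78 and 65 fragments, over backgrounds of 4.57, 10.1 and 10.1. The JRKL summit held 57, 77 and 66, over backgrounds of 10.5, 6.07 and 5.88. At the same backgrounds a peak would have entered a CTRL list at 22 to 38 fragments for LAPTM5, 20 to 34 for ALDH16A1/FLT3LG, 13 to 22 for CEACAM21 and 15 to 22 for JRKL. CTRL fragments up to these numbers would have left no trace in the lists, so that the size of the gain is not known from them. The 3 VPA summits of a region lay within 65 to 158 bp of each other.

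**Figure D2:**
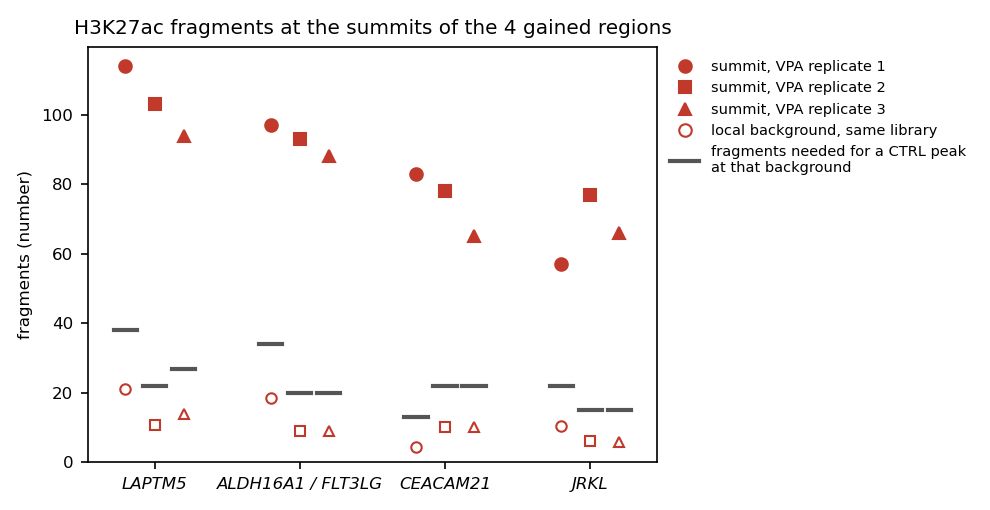
Fragments (number) at the summit of each of the 4 gained H3K27ac regions in the 3 VPA libraries (filled symbols), the local background in the same library (open symbols), and the fragments that would have been needed for a peak in the CTRL list of the same number at that background (grey bars). All 12 summits, from 57 to 114 fragments, sit above the grey bars, which lie between 13 and 38, as the choice of high-ranked VPA peaks ensured. No CTRL fragments are shown.

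Neighbouring acetylation differed between the 4 places. The LAPTM5 region was 1.9 kb from a region with H3K27ac peaks in all 6 lists, and the ALDH16A1/FLT3LG region was 5.6 kb from one. The CEACAM21 and JRKL regions were farther off, 51.2 kb and 51.9 kb from the nearest such region. Within 50 kb of the CEACAM21 summit, other H3K27ac peaks were each found in a single list, of CTRL or of VPA. In the JRKL surroundings no other H3K27ac peak lay within 50 kb of the summit in any of the 6 lists.

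**Figure D3:**
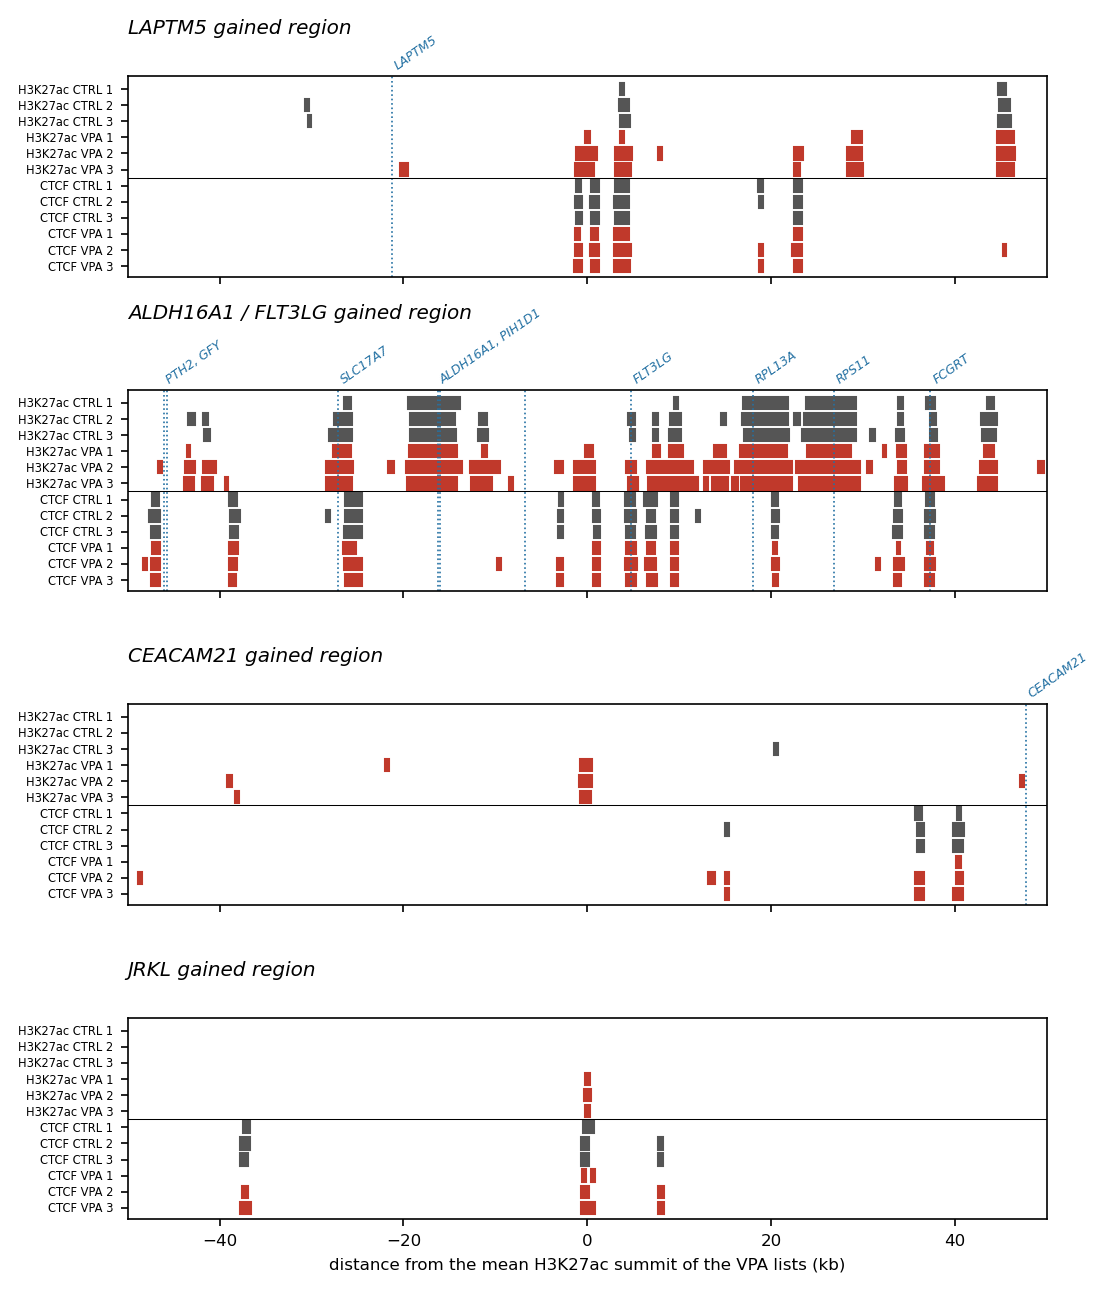
Peaks of each library (rows) within 50 kb of the mean summit of the 4 gained regions, by distance in kb. Grey boxes are CTRL peaks, red boxes are VPA peaks, H3K27ac is above the line and CTCF below it, and dotted lines are start sites of protein-coding genes. At the centre, H3K27ac peaks stand in the 3 VPA rows and in 0 CTRL rows, whereas CTCF peaks of all 6 libraries lie at the centre or within 1 kb of it in 3 of the 4 panels.

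The whole windows are described next. For LAPTM5, CTRL replicates 1 to 3 had 4, 5 and 4 H3K27ac peaks and VPA replicates had 7, 9 and 9, and the groups did not overlap. For ALDH16A1 the CTRL numbers were 15, 21 and 19 and the VPA numbers 23, 31 and 31. For FLT3LG they were 14, 21 and 19 in CTRL and 22, 33 and 33 in VPA. CEACAM21 had 1 peak in each CTRL list against 3, 6 and 2 under VPA. In these 4 windows every VPA list had more peaks than any CTRL list, as was so for 31.5% of all gene windows. Those of ALDH16A1 and FLT3LG share most of their peaks and are not separate cases. The peak numbers include the gained regions, which the rule of choice put in every VPA list and in no CTRL list. With those peaks left out, the groups of FLT3LG and of CEACAM21 would no longer be apart.

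The JRKL window had no such separation. Its CTRL lists had 6, 9 and 10 H3K27ac peaks against 8, 7 and 8 under VPA, and the groups overlapped. The difference of means, −0.667, was at the 1.03 percentile of all gene windows, but its direction did not hold, being 1 in windows of 50 kb, 1 in the gene body, 0.167 without CTRL replicate 3 and −1.83 without CTRL replicate 1. Fewer peaks in every VPA list were found in only 0.136% of gene windows, and JRKL was not one of them. Most peaks of this window lay in introns of the neighbouring gene MAML2, which encodes a coactivator of Notch signalling and was named after the values were seen. Here 3 regions had peaks in 1 or 2 CTRL lists and in 0 VPA lists.

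Across all genes the median difference was 1.67 peaks per window. LAPTM5, with 4 more peaks on average, was at the 81.5th percentile of this difference, CEACAM21, with 2.67, at the 65.5th, ALDH16A1, with 10, at the 99th and FLT3LG, with 11.3, at the 99.5th. In the merged windows H3K27ac peaks covered 38.3, 55 and 56.6 kb in CTRL and 59.4, 98.9 and 92.3 kb in VPA. The number of merged-window peaks was 27, 37 and 35 without VPA against 43, 56 and 53 with it. With all lists shortened to the length of the shortest, the mean difference dropped from 17.7 to 7 peaks. The peak differences and percentiles of the members include the gained regions that chose them. Other genes were not chosen in this way, so the percentiles are a description only.

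**Figure D4:**
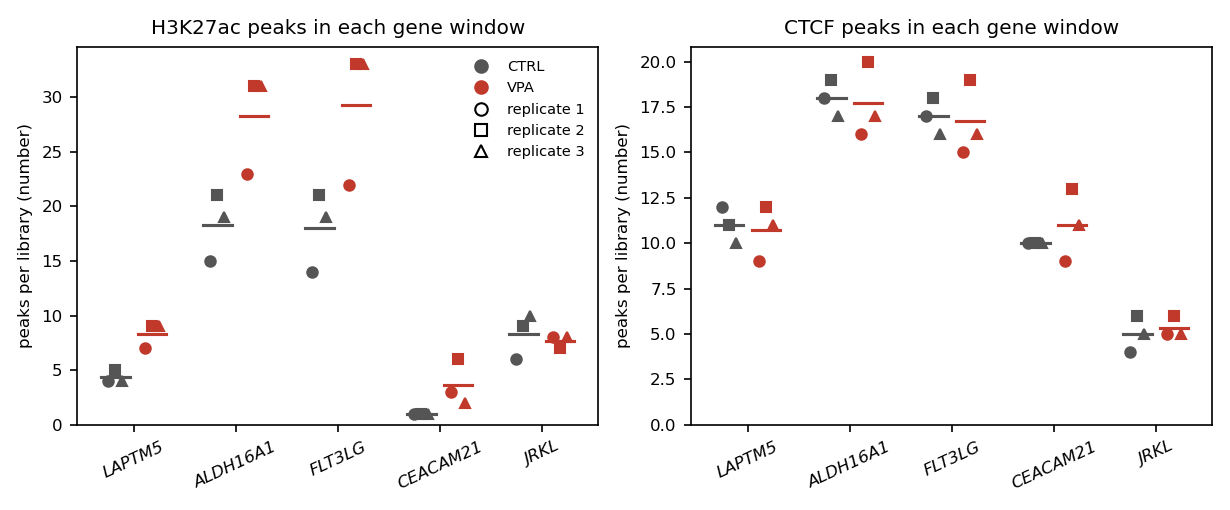
Number of H3K27ac peaks (left) and CTCF peaks (right) in the window of each gene, 1 symbol per library with bars at the group means. H3K27ac groups are apart in 4 windows and overlap in JRKL, and CTCF groups overlap in all 5. The H3K27ac numbers include the gained regions that chose the genes.

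Merging the peaks of the 6 lists gave 72 H3K27ac regions in the windows. Of these, 23 had a peak in all 6 lists, 8 were only in VPA (3 of 3 VPA and 0 of 3 CTRL lists) and 0 were only in CTRL. Among all 55382 regions of the genome the share only in VPA was 4.12%, and that only in CTRL 0.139%. Leaving out the 4 regions that chose the genes, 4 of 68 (5.88%) were only in VPA, close to the share in the genome. At least 1 region only in VPA was in the window of 30.4% of all genes.

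The other 4 such regions lay as follows. The LAPTM5 window held chr1:30807228-30808934, 50.2 kb from LAPTM5 and 101 kb from SDC3, with a mean rank of 58.3, and chr1:30853353-30854159, 96 kb from LAPTM5 and 54.9 kb from SDC3, with a mean rank of 42.5. SDC3 encodes a heparan sulfate proteoglycan of the cell surface. The ALDH16A1 and FLT3LG windows shared chr19:49373163-49374405, in an intron of DKKL1 between the start sites of TEAD2 (11.3 kb) and KASH5 (14.4 kb), with a mean rank of 29.2. The FLT3LG window alone held chr19:49578149-49578996, in an intron of NOSIP and 2.04 kb from the start site of PRRG2, on its other side from RCN3 (50.6 kb), with a mean rank of 23. LAPTM5 thus had 3 such regions, FLT3LG 3, ALDH16A1 2, and CEACAM21 and JRKL 1 each.

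The 23 H3K27ac regions with a peak in all 6 lists did not move one way. The mean fold enrichment was higher in VPA at 11 and lower at 12, and it was higher at 37.3% of such regions in the genome. At 2 of the 23 the fold enrichment was higher in every VPA list, as at 4.51% of such regions in the genome, and at 1 it was lower in every VPA list, as at 1.54%. These 3 were singled out after their values were seen, and all lie in the windows of ALDH16A1 and FLT3LG. The region in an intron of KASH5 had fold enrichments of 15.5, 7.04 and 10.1 in CTRL and 36.7, 20 and 22.2 in VPA, and that in an intron of RCN3 had 8.53, 7.38 and 5.67 in CTRL and 12.3, 11.3 and 13.6 in VPA. The region at the promoter of RPL13A, a ribosomal protein gene, had 59.1, 67 and 64.4 in CTRL and 31.7, 53.3 and 43.2 in VPA.

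Promoters, taken as 1 kb either side of a start site, split the 5 genes. JRKL had an H3K27ac peak in all 6 lists, with fold enrichments of 7.83, 20.7 and 23.9 in CTRL and 5.9, 15.8 and 20.7 in VPA, which overlap. The peak is shared with CCDC82, transcribed from the other strand. ALDH16A1 had one in all 6, at 22.1, 38.9 and 38.1 in CTRL and 16.5, 27 and 29.5 in VPA, shared with PIH1D1, and these overlap too.

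FLT3LG had a promoter peak in 2 CTRL lists (5.41 and 3.82) and 2 VPA lists (5.7 and 7.11), with 0 in either replicate 1 library. LAPTM5 had a promoter peak in 0 CTRL lists and in 1 VPA list (3.02), and CEACAM21 likewise in 0 and 1 (3.61). So the LAPTM5 and CEACAM21 regions appeared near promoters that were mostly without an H3K27ac peak in both treatments. Of all 22 protein-coding promoters in the windows, 12 had H3K27ac in all 6 lists and 5 in none. The number of lists differed between CTRL and VPA at 4, by 1 list each time: LAPTM5, CEACAM21, PTH2, a parathyroid hormone family gene, and GFY, which shares its peak with PTH2.

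CTCF was not used to choose the genes and can be tested. No difference in its peak number was detected. The merged windows had 44, 46 and 42 CTCF peaks in untreated cells against 39, 51 and 44 under VPA. The difference of means was 0.667 (exact permutation test, two-sided, p = 1, n = 3 against 3), and p = 0.1 is the smallest that this design can give. The length covered was 34.6, 40.7 and 38.4 kb in CTRL and 26, 43.8 and 40.1 kb in VPA (exact permutation test, p = 0.9).

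In the single windows the CTCF groups overlapped for all 5 genes. LAPTM5 had 12, 11 and 10 peaks in CTRL against 9, 12 and 11 in VPA. ALDH16A1 had 18, 19 and 17 in CTRL against 16, 20 and 17 in VPA, and FLT3LG 17, 18 and 16 against 15, 19 and 16. CEACAM21 had 10 in each CTRL list against 9, 13 and 11 under VPA. JRKL had 4, 6 and 5 in CTRL against 5, 6 and 5 in VPA. Exact permutation p-values were 0.7 to 1, and 1 after Benjamini-Hochberg adjustment over the 5 genes. Groups not overlapping were also rare among all gene windows, at 0.199% with more and 1.53% with fewer CTCF peaks in every VPA list. Of 56 CTCF regions in the windows, 36 had a peak in all 6 lists, and 0 were present in the 3 lists of VPA or of CTRL alone. Among all 69985 CTCF regions these shares were 0.186% and 0.326%.

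At 3 of the 4 gained regions CTCF had peaks in untreated cells too. The LAPTM5 region overlapped 2 CTCF regions with a peak in all 6 lists and the ALDH16A1/FLT3LG region 1. The JRKL region lay wholly inside 1, as merged over the 6 lists. In single lists, only the CTCF peaks of CTRL replicate 1 and VPA replicate 3 spanned the whole JRKL region. VPA replicate 1 had a CTCF peak on either side of the H3K27ac summit and none across it. The distance between H3K27ac and CTCF summits was 0.283 kb at JRKL, 0.815 kb at LAPTM5 and 0.975 kb at ALDH16A1. The CEACAM21 region had its nearest such CTCF summit 40.4 kb away. For comparison, 38% of the 100 highest-ranked regions only in VPA and 24.6% of all 2280 besides these 4 overlapped such a CTCF region, as did 31.4% of the H3K27ac regions with a peak in all 6 lists. With 4 regions no difference from these shares can be read.

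The CTCF core consensus was sought in the 36 CTCF regions that had a peak in all 6 lists, and 13 of them held it, 12 within 50 bp of the CTCF summit. Genome-wide, 17% of CTCF regions with a peak in all 6 lists had it in the 300 bases at the summit. Matches are shown for CTCF regions that overlap a gained region and for the one at the FLT3LG start site, 5′ to 3′ on the strand of the motif, with the core in capitals. They lie at chr1:30779742-30779803 (minus strand, inside the LAPTM5 region, 9 bp from the CTCF summit), chr11:96463984-96464045 (plus strand, at the start of the JRKL region, 26 bp from the CTCF summit and the nearer to it of 2 in that CTCF region) and at the FLT3LG start site (chr19, plus strand, 3 bp from the CTCF summit).
LAPTM5 site: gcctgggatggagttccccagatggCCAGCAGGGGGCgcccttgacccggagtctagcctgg
JRKL site: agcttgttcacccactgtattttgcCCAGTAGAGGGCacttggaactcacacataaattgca
FLT3LG start site: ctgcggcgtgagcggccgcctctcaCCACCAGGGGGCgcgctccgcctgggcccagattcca

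The CTCF regions at ALDH16A1 and nearest to CEACAM21 held no match to this consensus, which says only that these letters are not there. The other CTCF region overlapping the LAPTM5 region, chr1:30777579-30778454, held none either. The JRKL core lies upstream of the repeated sequence at the H3K27ac summit, in words that occur once.

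No difference in CTCF enrichment was detected at these places. At the stronger LAPTM5 site, chr1:30779304-30780243, the summit fold enrichment was 116, 62.1 and 61.5 in CTRL and 39.6, 133 and 96.3 in VPA. The groups overlapped, and the log2 difference from limma was 0.18 ± 0.75 (SE, n = 3 against 3, adjusted p = 1). The weaker LAPTM5 site, chr1:30777579-30778454, had 7.85, 14.6 and 12.4 in CTRL and 8.85, 13.2 and 11.3 in VPA, a log2 difference of 0.08 ± 0.63 (limma, adjusted p = 1).

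In ALDH16A1 the CTCF region chr19:49470057-49470903 had fold enrichments of 9.28, 19.1 and 19.8 in CTRL and 17.7, 31 and 23.7 in VPA. Replicates 2 and 3 of VPA were the highest of the 6, but replicate 1 was not above the CTRL range, and the log2 difference was 0.75 ± 0.62 (limma, adjusted p = 1). The JRKL site, chr11:96463616-96465127, had 8.5, 52.2 and 68 in CTRL and 10, 95.9 and 53.4 in VPA, a log2 difference of 0.37 ± 0.62 (limma, adjusted p = 1). In both treatments replicate 1 was low there. The site nearest to the CEACAM21 region, chr19:41541551-41542766, was also low in replicate 1, with 9.02, 91.1 and 70.4 in CTRL, 13.5, 93 and 107 in VPA and a log2 difference of 0.52 ± 0.64 (limma, adjusted p = 1).

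**Figure D5:**
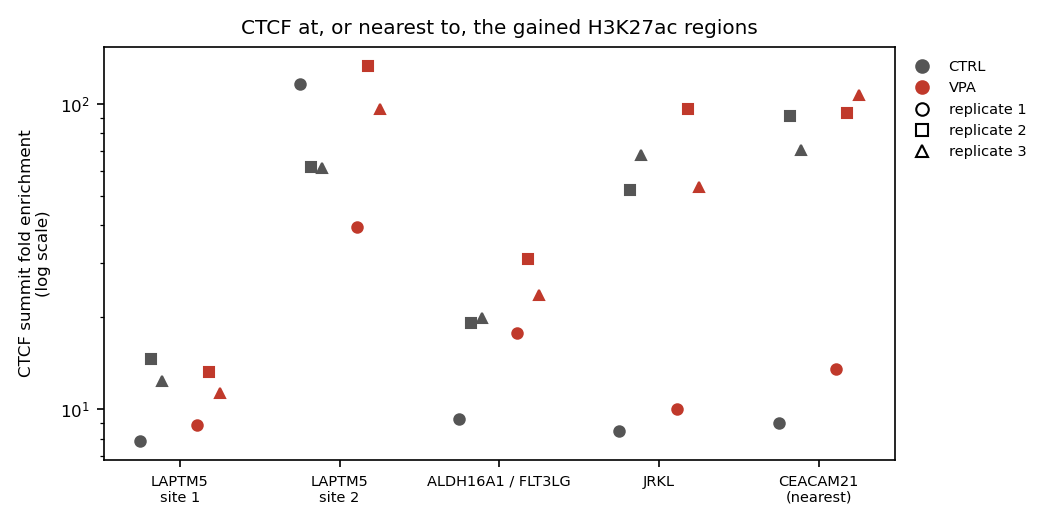
CTCF summit fold enrichment (log scale) in each of the 6 libraries at the CTCF regions that overlap the gained H3K27ac regions of LAPTM5 (sites 1 and 2 in order of position), ALDH16A1/FLT3LG and JRKL, and at the one nearest to that of CEACAM21. CTRL and VPA values overlap at all 5, and replicate 1 is lowest in both treatments at 4 of the 5.

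The strongest CTCF site beside a member promoter stood at the FLT3LG start site. Its fold enrichment was 61.8, 124 and 86.6 in CTRL and 90.5, 125 and 111 in VPA, its mean was above that of 96.7% of the 27794 CTCF regions with a peak in all 6 lists, and the log2 difference was 0.42 ± 0.82 (limma, adjusted p = 1). The LAPTM5, ALDH16A1, CEACAM21 and JRKL start sites had no CTCF peak in any list. Over the 36 CTCF regions of the windows the log2 difference was positive at 23 and negative at 13, with a median of 0.10, equal to that of all 27794 regions. The lowest unadjusted p was 0.0226, at a region 1.34 kb from the MAML2 start site in the JRKL window, with fold enrichments of 4.82, 7.72 and 7.45 in CTRL and 8.57, 25.5 and 20.4 in VPA. The groups did not overlap there, but the log2 difference of 1.45 ± 0.64 did not pass adjustment (limma, adjusted p = 1). Over the genome limma called 0% of the CTCF regions higher and 0% lower. At an unadjusted p under 0.05 it had 0.464% of them, a smaller share than that threshold alone would give, with 39 higher and 90 lower. That balance turned with the scaling, to 187 higher and 68 lower without centring and 303 higher and 231 lower after quantile normalization, and with the replicate number as a block it was 412 higher and 158 lower. In simulated data, log2 changes of 3 were called in 0% of cases and of 6 in 91.5%. The simulation took the estimated spread of each region as exact, whereas the fit to the data pools spreads over regions. The smallest difference that could have been detected is thus not known from it.

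The promoters of related genes give the setting. Of the 12 CEACAM genes, 0 had a promoter H3K27ac peak in all 6 lists and 11 had none in any list, CEACAM21 being the exception. Windows of 4 of them, CEACAM1, CEACAM16, CEACAM19 and CEACAM21, held a region only in VPA, a share of 33.3% beside 30.4% of all genes. CEACAM21 counts here by the rule of choice. Of the 3 LAPTM genes, LAPTM4A and LAPTM4B had promoter H3K27ac in all 6 lists, unlike LAPTM5. Of 19 aldehyde dehydrogenase genes 11 had it in all 6 and 6 in none, and ALDH1A1, an enzyme of retinoic acid synthesis, had a promoter peak in 3 VPA and 0 CTRL lists.

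Of the 9 genes of FLT3 ligand, related cytokines and their receptors, 3 had promoter H3K27ac in all 6 lists (KITLG, KIT and CSF1), and the receptor gene FLT3 had it in 3 CTRL and 2 VPA lists. Of the 9 JRK and TIGD genes 8 had it in all 6, JRKL included. Among 9 autosomal genes of haematopoietic signalling only the kinase gene SYK had it in all 6 and the other 8 had none, while the windows of LCK, ZAP70, SYK and VAV1 each held a region only in VPA, a share of 44.4%. That share was 26.3% for the aldehyde dehydrogenases, 11.1% for the FLT3 ligand list, 11.1% for the JRK and TIGD genes, 27.3% for the kidney list and 0% for the blood cell list described next, beside 30.4% of all genes. The family shares include the members, which were chosen for such a region. In the FLT3 ligand list the only such gene was FLT3LG, and in the JRK and TIGD list JRKL. Among all genes 58.1% had promoter H3K27ac in all 6 lists and 32.9% in none.

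Markers of the labelled line were checked. Promoters of 8 of 11 genes of embryonic kidney and of this line had H3K27ac in all 6 lists, the exceptions being PAX2, PAX8 and EYA1. Promoters of 10 blood cell genes had it in 0 cases in all 6, and 9 of the 10, PTPRC included, had none in any list, with CD14 in 1 VPA list.

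Likeness of pattern was measured as the Euclidean distance of the within-list ranks over the 3 VPA lists, in percentile points, among regions only in VPA. The region nearest to HRH4, 27.8 kb from its start site, was the most like that of CEACAM21 (6.94), with ranks of 65.8, 60 and 57.3.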

How the data were processed

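ChIP-seq peak lists of 12 libraries (H3K27ac and CTCF, 3 CTRL and 3 VPA each) were analysed. Input libraries, 6 in number, were left out. Sonicated fragments were 200 to 600 bp long and were read from both ends. The authors aligned reads to hg38 with Bowtie2 and called peaks per library with MACS3 (3.0.0a7 in the submitters' processing notes) at a q-value of 0.05. Use of the input libraries and the handling of duplicate and multiply aligning reads are not given in the sources used here. The deposited lists hold the fold enrichment (ratio) of each summit over its local background. Each peak also has a deposited −log10 p-value and a −log10 q-value. The deposited score repeats the −log10 q-value on another scale and was not used.

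Samples were grouped by their labels. Members and gene lists were chosen with earlier results of these data known. The genes named are the 5 members, the nearest protein-coding start sites beside each region only in VPA, promoters whose number of lists differs, the regions just outside the set, the most similar regions and the fixed family and marker lists. Peaks of the 6 lists of an antibody were merged where they shared 1 bp, and windows were gene bodies plus 100 kb (GENCODE 44). Summit fragments were recovered from fold enrichment and −log10 p, within 0.05 of a whole number for 100% of the CTCF values checked. CTCF peak number and covered length were compared by exact permutation tests, two-sided. CTCF fold enrichment at the 27794 regions with a peak in all 6 lists was compared on the log2 scale, centred on library medians, with limma (eBayes with trend) and Benjamini-Hochberg adjustment over all regions at 0.05. The fit was tested on simulated data. Some regions and sequences are not reported here. Word copies were counted exactly over chromosomes 1 to 22, X and Y. Alternatives were other windows, q-value thresholds, list lengths, overlaps, merging gaps, normalizations and left-out libraries. Tools were R 4.3.3, limma 3.58.1, Python 3.11.15, pandas 2.3.3, NumPy 2.4.6 and SciPy 1.17.1.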

Additional observations from a re-analysis of the deposited data

How the results depend on the processing

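All 4 gained regions kept their VPA peaks at −log10 q of at least 10 and with lists of equal length. Their values had fixed this outcome, the lowest −log10 q being 21.4 and the lowest rank 55.8, both at JRKL in VPA replicate 1. The other alternatives could not change their presence in VPA alone, which was the rule of choice, or had little room to. None of these alternatives says anything of its stability. Their order did not hold. Ranked by fold enrichment instead of −log10 q, CEACAM21 came first, JRKL 14th, ALDH16A1/FLT3LG 22nd and LAPTM5 38th of 2284, and the cause was not tested. The 8 H3K27ac regions only in VPA became 5 with windows of 50 kb, 2 in gene bodies alone and 5 at −log10 q of at least 10, where fewer bases or peaks were counted, and 8 to 11 with a library left out. Without replicate 1 of both treatments there were 11 of 70, beside 13% of all regions. For ALDH16A1 the number went from 2 to 4, and for FLT3LG from 3 to 5, without CTRL replicate 2 or without VPA replicate 1. With a library left out the class asks for fewer lists, over the whole genome as in these windows. The H3K27ac difference of 17.7 peaks became 11 with windows of 50 kb, 5 in gene bodies alone, 11 at −log10 q of at least 10 and 7 with lists of equal length, and was 14.7 to 21.5 with a library left out. In the JRKL window the difference of −0.667 became 1.33 at −log10 q of at least 10, and in the LAPTM5 gene body 4 became −0.667.

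The CTCF differences changed sign easily, as values near 0 do. The number of peaks, 0.667, became −2.67 at −log10 q of at least 10 and −1.33 with lists of equal length, and ranged from −2.5 to 3.5 with a library left out. The covered length, −1.24 kb, ranged from −4.83 to 4.06 kb with a library left out and was 2.42 kb without replicate 1 of both treatments. With that same omission the peak difference was 0.5 for ALDH16A1 and FLT3LG and 1 for LAPTM5. For CEACAM21 it was −0.333 at −log10 q of at least 10 and with lists of equal length. With a library left out, it ranged from −1.5 to 0.5 for ALDH16A1 and FLT3LG, from −1 to 0.5 for LAPTM5 and from −0.167 to 0.833 for JRKL. At the weaker LAPTM5 site the log2 difference was −0.03 without centring and −0.10 without replicate 1 of both treatments, and −0.36 to 0.36 with a library left out. With summit fragments over background coverage, an alternative added after the data were seen, it was −0.28 at the stronger LAPTM5 site and −0.13 at JRKL. With a library left out it was −0.25 to 1.00 at the stronger LAPTM5 site, −0.05 to 0.72 at JRKL and −0.01 to 0.89 at CEACAM21. In limma 0 CTCF regions were called under all 14 settings.

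Same-numbered libraries did not deviate together in every pair (r = 0.34, −0.0451 and 0.477 for CTCF numbers 1 to 3). Other pairings of number 1 gave −0.493 to 0.0183, whereas CTRL number 2 with VPA number 3 gave 0.409. Whether the numbers pair the libraries is not settled by these values. Blocking on the replicate number gave differences of 0.667 peaks (exact permutation p = 1) and −1.24 kb (p = 1), and limma again called 0 regions. The spread between replicates limits the CTCF comparison, the smallest change it could detect is not known, and the lists hold no value below the peak threshold.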
